A study of Homo sapiens with 16 samples.

Results

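The genes described are 40 DNA damage repair genes, taken by symbol from a list ordered by repair pathway. No measured value entered that rule, but the list was chosen with earlier results of these data known. Its counts are therefore not those of an independently chosen set. All 40 were found among the 60642 gene symbols of the deposited table, and all 40 were among the 16636 genes that reached a TPM (an abundance corrected for transcript length and scaled to a fixed total in each library) of 1 in 2 or more libraries and were tested. By role, 16 belong to homologous recombination, 7 to the Fanconi anaemia pathway, 6 to the damage checkpoint, 6 to end joining, 3 to single-strand break repair and 2 to mismatch repair.

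Cells repair a broken double helix mainly by 2 routes. Homologous recombination copies the sister chromatid and therefore works after DNA replication, whereas end joining seals the broken ends directly in any phase of the cell cycle. The Fanconi anaemia proteins unhook cross-links between the strands, and the checkpoint kinases ATM, ATR, CHEK1 and CHEK2 hold the cycle while damage is repaired. Many recombination and checkpoint genes are known to be transcribed mostly in cells that replicate their DNA. In prostate cancer, repair genes are of interest because androgen signalling has been tied to their expression and because tumours that lack recombination respond to PARP inhibitors.

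The libraries came from LNCaP, an established androgen-responsive line from a prostate cancer metastasis that is known to be deficient in mismatch repair. Every group was grown for 72 h in medium with 5% serum and then for 48 h in androgen-depleted medium, and was treated for 48 h. VEH received the solvents ethanol and DMSO, and DHT received 10 nM of the androgen dihydrotestosterone. The BIC, ENZ and APA groups received 10 µM of the androgen antagonists bicalutamide, enzalutamide and apalutamide, without DHT (BIC.VEH, ENZ.VEH, APA.VEH) or with 10 nM DHT (BIC.DHT, ENZ.DHT, APA.DHT). Each of the 8 groups had 2 libraries, labelled as biological replicates 1 and 2, so p-values measure only the spread between these samples, all of them from 1 cell line.

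Some features of the libraries bear on the repair genes. Luminal prostate markers were abundant (KRT8 from 546 to 976 TPM, HOXB13 from 149 to 258 TPM), while 7 of 11 markers of basal, fibroblast, immune and endothelial cells stayed at or below 0.16 TPM (TP63, KRT5, COL1A2, DCN, PTPRC, CD3E and PECAM1). The other 4 were KRT14 (at most 1.68 TPM), VWF (0.61 to 1.90 TPM), CD68 (0.92 to 12.1 TPM) and COL1A1 (11.4 to 32.6 TPM). Read depth is unknown from TPM. Mitochondrial genes held 14.7% (DHT replicate 2) to 22.3% (DHT replicate 1) of the total. The replicates of ENZ.DHT and of APA.DHT lay farther apart than those of other groups: 5.71% and 6.17% of genes differed more than 2-fold between the replicates of these groups, against 2.45% to 3.97% elsewhere. Against the other 7 libraries of its own replicate number, replicate 1 differed in a median of 3.55% of genes in ENZ.DHT and 2.88% in APA.DHT, and replicate 2 in 1.38% and 1.56%; the DHT libraries had the highest medians (8.57% and 7.49%), and the rest ran from 1.36% to 2.74%. The median TPM of 32 markers of dividing cells was higher in replicate 2 than in replicate 1 in every group, at 8.73 and 22.1 TPM in VEH against at 25.7 and 46.3 TPM with DHT. Each comparison was made within replicate, with the replicate number as a block in the fit.

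The first comparison asked which repair genes changed when androgen was given back to androgen-depleted cells. With DHT, 22 of the 40 repair genes rose, 2 fell (BARD1 and PMS2) and 16 did not pass the test (limma with replicate as a block, Benjamini-Hochberg adjusted p below 0.05 over all genes tested). Over all genes tested, 27.4% were called, 10.6% higher and 16.8% lower. The median log2 fold change of the 40 genes was 0.52, against -0.10 for all genes tested. Within replicates, 30 of the 40 were higher with DHT in both and 7 were lower in both, against 29.2% and 48.1% of all genes.

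By share of each role, genes that rose were most frequent in the Fanconi anaemia pathway and in homologous recombination. The other roles did not exceed the 22 of 40 of the whole list. Homologous recombination had 10 genes higher and 1 lower of 16, the Fanconi anaemia pathway 5 higher of 7, and the checkpoint 3 higher of 6. End joining had 2 higher of 6, single-strand break repair 1 higher of 3, and mismatch repair 1 higher and 1 lower of 2. The median log2 fold change was 0.92 for recombination, 0.74 for the Fanconi genes and 0.10 for end joining.

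**Figure D1:**
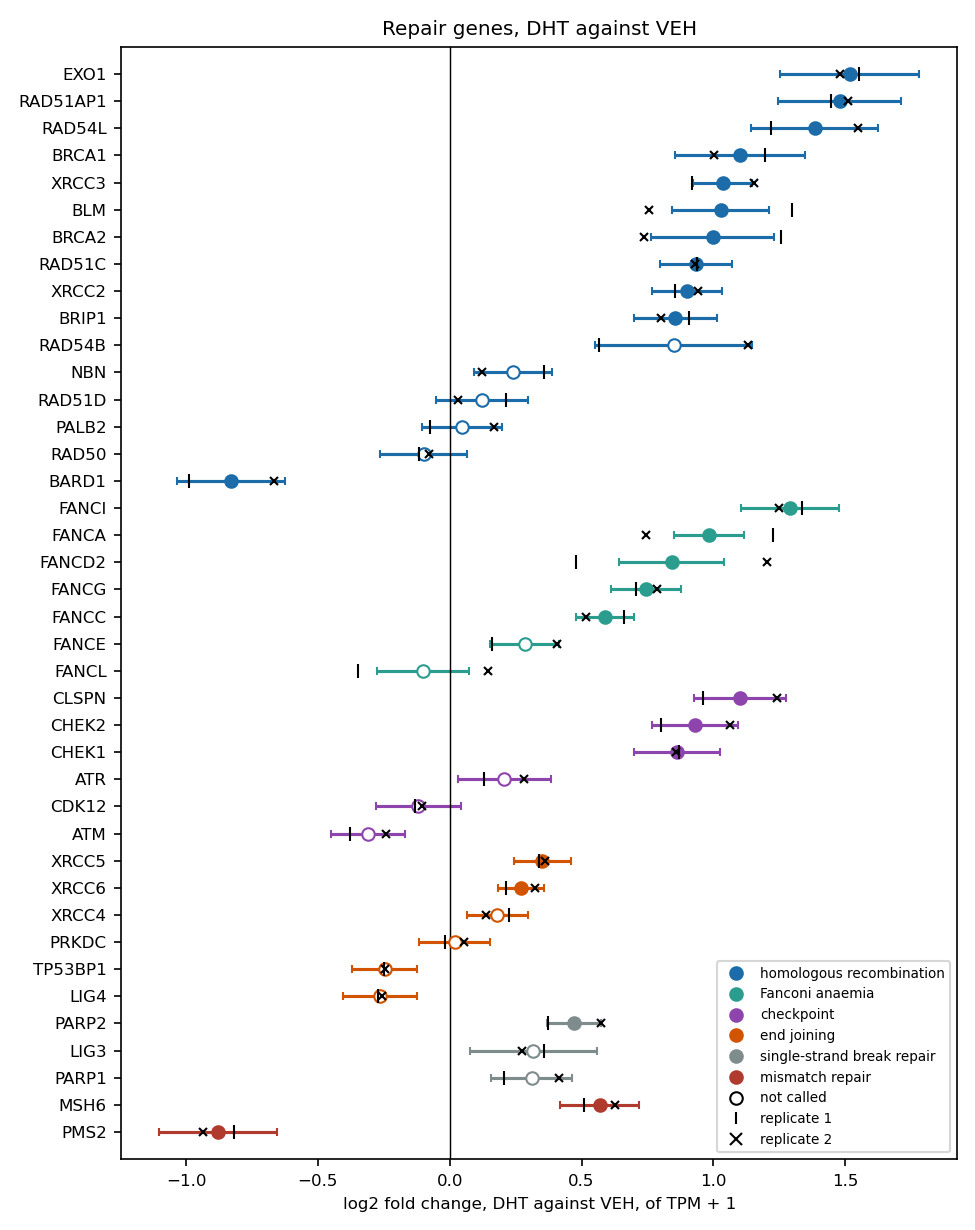
Log2 fold change of DHT against VEH on the TPM + 1 scale for the 40 repair genes, ordered by role. Circles with bars are the limma estimate and its SE (filled when the adjusted p was below 0.05), and the black marks are the differences within replicate 1 and replicate 2. EXO1 stood highest at 1.52 and PMS2 lowest at -0.88.

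Markers of dividing cells moved with these genes. All 32 were higher with DHT in both replicates, 30 of the 32 were called higher, and their median log2 fold change was 1.29. Without the replicate block 0 of the 32 were called by limma, with 1 at an unadjusted p under 0.05. MKI67, a protein of cycling nuclei, measured 2.18 and 9.28 TPM in VEH against 11.7 and 24.4 TPM with DHT, and PCNA, the sliding clamp of replication, 44.3 and 87.0 TPM in VEH against 89.9 and 177 TPM with DHT. The part of the dividing-cell markers in the result was not tested, and in bulk samples fewer cells that express a gene and less RNA per cell cannot be told apart. All 20 androgen-induced genes rose too, with and without the block, among them KLK3, from 53.0 and 24.0 to 4102 and 2422 TPM.

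How many calls were made depended on the replicate block. Without it, 3 of the 24 genes were called, namely XRCC3, RAD51C and PMS2, and over all genes tested 10.3% were. With replicate 1 of ENZ.DHT and of APA.DHT left out of the fit, 28 were called, including all 24. Under median-ratio scaling 28 were called as well. Over all genes, 2761 were then called higher and 2260 lower, against 1762 and 2797 in the main fit. The share of higher genes among all calls thus moved from 38.6% to 55.0%.

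EXO1, a nuclease that resects DNA ends and excises mismatches, had the highest fold change of the repair genes. It lies on chromosome 1 (241847986 to 241889939, GRCh38.p14). Its level was 1.28 and 2.95 TPM in VEH against 5.69 and 10.02 TPM with DHT, so that the groups did not overlap. The fold was 2.86 on the TPM + 1 scale (log2 1.52, SE 0.26, adjusted p 0.00181 by limma), and the adjusted p was 0.187 without the block. RAD51AP1, which helps the recombinase pair homologous strands, had 2.86 and 6.14 TPM in VEH against 9.52 and 19.3 TPM with DHT. Its log2 fold change was 1.48 (SE 0.23, adjusted p 0.00103 by limma).

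BRCA1 and BRCA2, chosen for description after their values were seen, rose as well. BRCA2, the loader of the recombinase onto resected DNA, was among the scarcest repair transcripts, at 0.93 and 4.91 TPM in VEH against 3.61 and 8.85 TPM with DHT. BRCA1, a ubiquitin ligase that promotes resection, had 3.29 and 6.34 TPM in VEH against 8.83 and 13.7 TPM with DHT. For BRCA2 the VEH and DHT libraries overlapped across replicate numbers, although DHT was higher within each; for BRCA1 they did not overlap. The log2 fold changes were 1.10 (SE 0.25, adjusted p 0.00753 by limma) for BRCA1 and 1.00 (SE 0.23, adjusted p 0.0096 by limma) for BRCA2. Without the block the adjusted p by limma was 0.437 for BRCA1 and 0.539 for BRCA2. BRCA2 was not called with a pseudocount of 0.1.

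XRCC3 and RAD51C, named after their values were seen because they were called with and without the block, encode the 2 subunits of the complex that stabilises recombinase filaments. XRCC3 (chromosome 14, 103697617 to 103715451, GRCh38.p14) had 15.11 and 15.04 TPM in VEH against 29.4 and 34.7 TPM with DHT, and a log2 fold change of 1.04 (SE 0.11, adjusted p 0.000104 by limma; 0.00166 without the block). RAD51C (chromosome 17, 58692573 to 58735611) had 40.7 and 51.4 TPM in VEH against 78.9 and 98.8 TPM with DHT, and a log2 fold change of 0.93 (SE 0.14, adjusted p 0.000627 by limma; 0.00643 without the block). In both genes the DHT libraries lay well above the VEH libraries, and the replicates lay closer together than in EXO1 or BRCA2. XRCC3 overlaps the annotated gene KLC1, which was not called with DHT (log2 fold change -0.21). The authors made strand-specific libraries, but no source states if strand was used in the counting.

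BARD1, the partner that BRCA1 needs for its ligase activity, went the other way. It lies on chromosome 2 (214725646 to 214809683) and had 65.5 and 68.0 TPM in VEH against 32.5 and 42.4 TPM with DHT. The change on the log2 scale was -0.83 (SE 0.20, adjusted p 0.0123 by limma; 0.168 without the block). Its level exceeded that of BRCA1 in every library. RAD54B, a motor protein of recombination that was also chosen after its values were seen, had 6.13 and 6.21 TPM in VEH against 9.56 and 14.8 TPM with DHT, and did not pass the test (log2 fold change 0.85, SE 0.30, adjusted p 0.0563 by limma). The other recombination genes not called were PALB2, RAD51D, RAD50 and NBN, with log2 fold changes from -0.10 to 0.24.

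**Figure D2:**
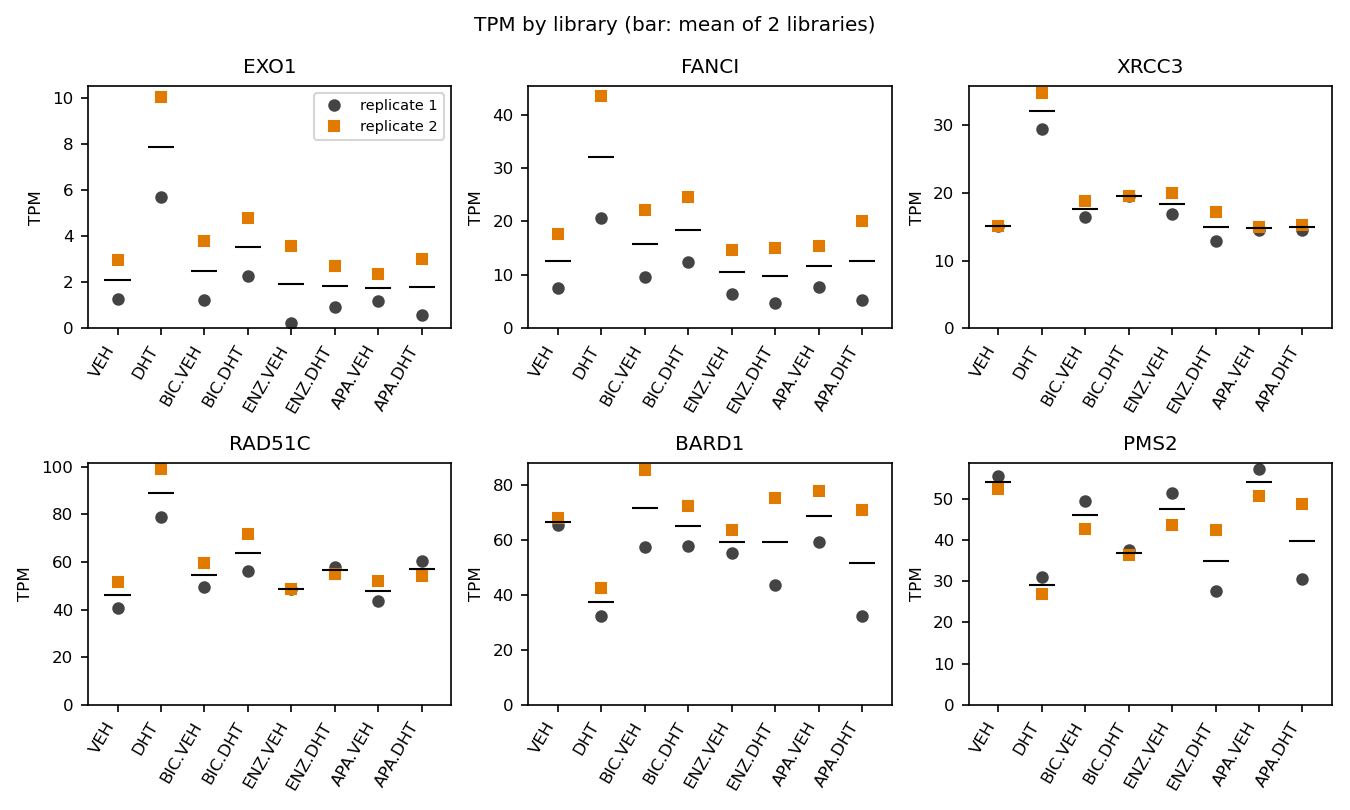
TPM of EXO1, FANCI, XRCC3, RAD51C, BARD1 and PMS2 in the 16 libraries, with circles for replicate 1, squares for replicate 2 and a bar at the mean of both. XRCC3 and RAD51C were highest in both DHT libraries, at 29.4 TPM or more and 78.9 TPM or more, while BARD1 and PMS2 were lower with DHT than with VEH in both replicates.

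In the Fanconi anaemia pathway, FANCI had the highest fold change. FANCI and FANCD2 form the pair that is ubiquitinated when a fork meets a cross-link. FANCI (chromosome 15, 89243979 to 89317259) had 7.62 and 17.7 TPM in VEH against 20.7 and 43.4 TPM with DHT, without overlap between the groups. Its log2 fold change was 1.29 (SE 0.18, adjusted p 0.000568 by limma). FANCI overlaps POLG, which was not called with DHT (log2 fold change 0.26, adjusted p 0.0685 by limma). FANCA, a subunit of the core ubiquitin ligase, had 6.13 and 11.8 TPM in VEH against 15.7 and 20.4 TPM with DHT (log2 fold change 0.98, SE 0.13). FANCA overlaps ZNF276, which fell with DHT (log2 fold change -0.48, adjusted p 0.0139 by limma). FANCL, the catalytic subunit of the core ligase, had 7.46 and 8.11 TPM in VEH against 5.65 and 9.07 TPM with DHT; its replicates moved in opposite directions and its log2 fold change was -0.10 (adjusted p 0.715 by limma), which turned positive under median-ratio scaling.

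Among checkpoint genes, the downstream kinases CHEK1 and CHEK2 and the mediator CLSPN rose. CLSPN, which couples ATR to CHEK1 at stalled forks, had 2.54 and 3.83 TPM in VEH against 5.89 and 10.4 TPM with DHT. Its log2 fold change was 1.10 (SE 0.17, adjusted p 0.00107 by limma). CHEK2 had 5.78 and 12.1 TPM in VEH against 10.8 and 26.3 TPM with DHT (log2 fold change 0.93, SE 0.16). The apical kinase ATM had 16.9 and 20.2 TPM in VEH against 12.8 and 16.9 TPM with DHT, and neither ATM (log2 fold change -0.31, adjusted p 0.127 by limma) nor ATR (0.21) nor CDK12 (-0.12), a kinase of transcription elongation, passed the test.

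In end joining, the Ku genes rose by a small amount and the other 4 genes were not called. XRCC5 and XRCC6 encode the Ku heterodimer that caps broken ends, and XRCC6 had the highest level per length of the 40 genes, from 227 to 393 TPM over all libraries. XRCC6 had 278 and 314 TPM in VEH against 323 and 393 TPM with DHT, a fold of 1.20 on the TPM + 1 scale (log2 0.27, SE 0.09, adjusted p 0.0427 by limma). XRCC5 had 147 and 210 TPM in VEH against 186 and 270 TPM with DHT, with overlap between the groups and a log2 fold change of 0.35 (SE 0.11, adjusted p 0.0329 by limma). Both Ku genes lost their call without any 1 of the 4 VEH and DHT libraries. LIG4, the ligase of this pathway, had 7.91 and 8.76 TPM in VEH against 6.38 and 7.16 TPM with DHT and was not called (log2 fold change -0.27, adjusted p 0.191 by limma), nor were XRCC4, PRKDC and TP53BP1.

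In single-strand break repair, PARP2 rose from 21.1 and 25.1 TPM to 27.6 and 37.8 TPM (log2 fold change 0.47, SE 0.10, adjusted p 0.0063 by limma). PARP1, the main sensor of strand breaks and a drug target, had 107 and 116 TPM in VEH against 124 and 155 TPM with DHT and was not called (log2 fold change 0.31, adjusted p 0.161 by limma). LIG3, the nick-sealing ligase, had 21.3 and 26.1 TPM in VEH against 27.6 and 31.8 TPM with DHT and was not called either (log2 fold change 0.32).

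The mismatch repair genes split. MSH6, a subunit of the complex that recognises mismatches, rose from 11.04 and 14.1 TPM to 16.1 and 22.3 TPM (log2 fold change 0.57, SE 0.15, adjusted p 0.0167 by limma). PMS2, a nuclease subunit that acts after recognition (chromosome 7, 5970925 to 6009106), fell from 55.7 and 52.4 TPM to 31.1 and 26.9 TPM, with no overlap. Its log2 fold change was -0.88 (SE 0.22, adjusted p 0.0144 by limma; 0.0319 without the block). PMS2 has near-identical copies among which reads may have been divided: PMS2P4 and PMS2CL also fell (log2 fold changes -0.55 and -0.54), and PMS2P1 and PMS2P3 were not called (0.06 and 0.00). Leaving out 1 of the 4 VEH and DHT libraries at a time gave 17 to 19 calls among the 40 genes, and BARD1, MSH6 and PMS2 were each lost in 3 or 4 of these fits.

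Other repair genes, from a list of 93 beyond the 40, of which 92 were tested, moved in both directions. With DHT 20 rose and 8 fell, and their median log2 fold change was 0.07. CDC25C, which is on this list although it is a phosphatase of mitotic entry, rose (log2 fold change 1.44, SE 0.19). NEIL1, a glycosylase that starts base excision repair, fell from 37.3 and 34.0 TPM to 10.8 and 9.48 TPM (log2 fold change -1.72, SE 0.11, adjusted p 2.72e-06 by limma), and ERCC1, a subunit of the nuclease of nucleotide excision repair, also fell (-0.58, SE 0.13).

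The sequences before the start sites were examined because many of these genes moved together. RefSeq promoters (250 bases before each start, GRCh38.p14) were at hand for 35 of the 40 genes and not for RAD54B, NBN, XRCC5, PRKDC and FANCI. A set of 4 words bound by E2F factors, which drive S phase genes (TTTGGCGC, TTTCCCGC, TTTGCCGC and TTTCGCGC, on either strand), occurred in 3 of the 35 promoters, against 3.4% of 27305 genes with a promoter. These were FANCA and FANCC, which rose, and PMS2, which fell. Only these exact words were searched, bases after the start were not, and a gene counted if any of its starts had a match. A gene without a match may therefore still hold a site. The windows of 30 bases around each match are shown for these 3 genes on the strand of the gene (minus in all), with the match in capitals. Their positions are chr16:89816801-89816830, chr9:95317737-95317766, chr9:95317863-95317892 and chr7:6009131-6009160, in that order.
FANCA: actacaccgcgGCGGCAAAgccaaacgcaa
FANCC, nearer the start: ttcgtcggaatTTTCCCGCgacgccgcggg
FANCC, farther from the start: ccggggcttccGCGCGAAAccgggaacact
PMS2: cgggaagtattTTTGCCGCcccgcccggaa

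The CCAAT box, a common promoter word (CCAAT on either strand), was found in 17 of the 35 genes, against 37.0% of all genes with a promoter. It was present in 12 of the 20 genes with a promoter that rose with DHT, in 1 of the 2 that fell and in 4 of the 13 not called. XRCC3 held 5 matches, CLSPN 3 and RAD51AP1 1, and the match nearest the start is shown for each. They are examples, chosen after their values were seen, of the 6 genes with a match that rose with DHT and were lower with all 3 antagonists, the others being RAD54L, FANCA and CHEK1. Positions were chr14:103715467-103715496 (minus strand), chr1:35770007-35770036 (minus strand) and chr12:4538808-4538837 (plus strand), and capitals mark the match.
XRCC3: tgctaggcgcctATTGGaggagaaggccga
CLSPN: agccccctctggATTGGtgcaaaccatctg
RAD51AP1: tggctggtgatgATTGGacgactggtaaca
The word AGAACA, part of the androgen response element, occurred on either strand in 4 of the 35 (BRCA2, LIG4, PARP1 and PARP2), against 14.8% of all genes with a promoter. These matches describe letters in the windows and were not tested as binding sites.

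The second set of comparisons asked how far each antagonist lowered the repair genes in the presence of DHT. The 3 comparisons share the DHT libraries, with each other and with the first comparison, so a chance high DHT value raises the first and lowers the others. Against DHT, ENZ.DHT had 23 repair genes lower and 1 higher, APA.DHT 23 lower and 0 higher, and BIC.DHT 12 lower and 1 higher (limma with the block). Over all genes tested, 29.2% were called for ENZ.DHT (13.3% higher and 15.9% lower), 27.3% for APA.DHT (13.2% higher and 14.1% lower) and 13.3% for BIC.DHT (6.5% higher and 6.82% lower). The median log2 fold change of the 40 genes was -0.63 for ENZ.DHT, -0.57 for APA.DHT and -0.32 for BIC.DHT, against -0.01, 0.00 and 0.00 for all genes tested.

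By role, recombination had 10 genes lower with ENZ, 10 with APA and 7 with BIC, of 16. The Fanconi pathway had 5, 5 and 3 of 7, and the checkpoint 3, 3 and 2 of 6. End joining and single-strand break repair had 2 genes each lower with ENZ and with APA (XRCC5 and XRCC6, PARP1 and PARP2) and 0 with BIC. Genes lower with all 3 antagonists numbered 12, namely BRCA2, RAD51C, RAD51AP1, RAD54L, XRCC2, XRCC3, EXO1, FANCA, FANCG, FANCI, CHEK1 and CLSPN. The share of all genes lower with all 3 is not given here, but it cannot exceed the 6.82% called lower with BIC. PARP1 was lower with ENZ (log2 fold change -0.63) and APA (-0.55) and was not called with DHT alone in the main fit. Its estimate with DHT alone was above 0 (0.31), and it was called there under median-ratio scaling. The lowest PARP1 values were replicate 1 of ENZ.DHT (68.2 TPM) and of APA.DHT (75.6 TPM), against 116 and 118 TPM in replicate 2.

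**Figure D3:**
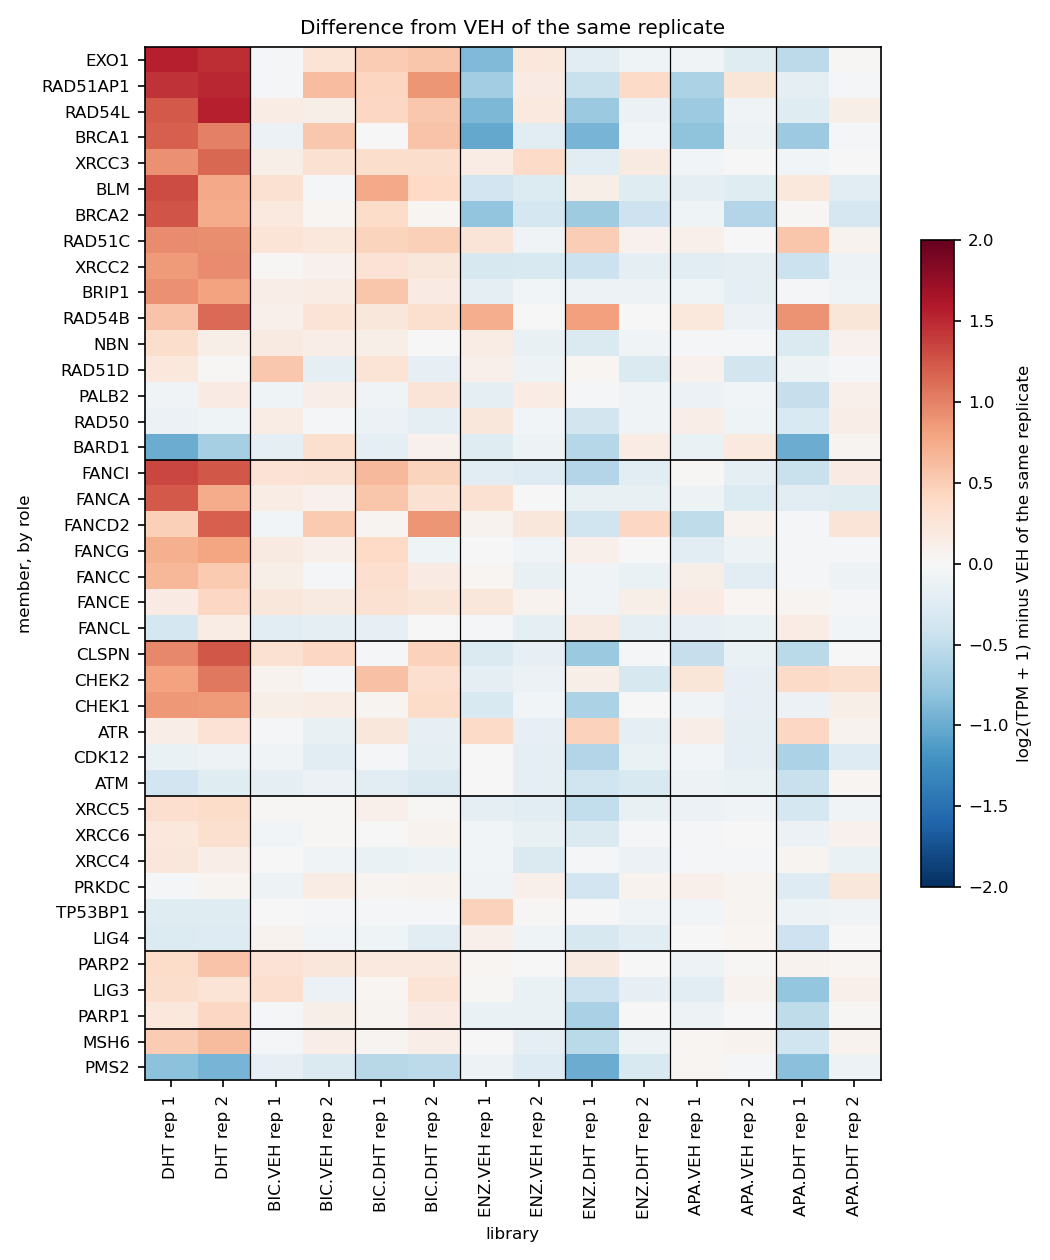
Difference in log2(TPM + 1) of each repair gene in each library from the VEH library of the same replicate, with genes in rows by role and libraries in columns (red higher, blue lower). The 2 DHT columns are red for most recombination, Fanconi and checkpoint genes and blue for BARD1 and PMS2, and the other columns are mostly pale, with the most blue in replicate 1 of the ENZ and APA groups.

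XRCC3 fell with each antagonist. It had 29.4 and 34.7 TPM with DHT, 19.6 and 19.5 TPM in BIC.DHT, 12.8 and 17.1 TPM in ENZ.DHT and 14.6 and 15.2 TPM in APA.DHT, all below both DHT libraries. The log2 fold changes against DHT were -0.68 (adjusted p 0.00319 by limma) for BIC, -1.06 (0.000103) for ENZ and -1.05 (0.000114) for APA, with an SE of 0.11 each. All 3 calls held without the block (adjusted p 0.0375, 0.00174 and 0.00206). RAD51C had 56.0 and 71.8 TPM in BIC.DHT, 58.0 and 54.9 TPM in ENZ.DHT and 60.2 and 53.9 TPM in APA.DHT, below both DHT libraries too.

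EXO1 fell from 5.69 and 10.02 TPM with DHT to 2.25 and 4.79 TPM in BIC.DHT, 0.94 and 2.72 TPM in ENZ.DHT and 0.59 and 3.01 TPM in APA.DHT. The log2 fold changes were -0.99 (SE 0.26), -1.68 (SE 0.26) and -1.77 (SE 0.26). FANCI had 12.4 and 24.5 TPM in BIC.DHT, 4.73 and 14.96 TPM in ENZ.DHT and 5.30 and 20.1 TPM in APA.DHT. Within each replicate these FANCI values lay below DHT, but replicate 2 of BIC.DHT exceeded replicate 1 of DHT (20.7 TPM).

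BRCA1 had 3.29 and 9.88 TPM in BIC.DHT, 1.24 and 6.06 TPM in ENZ.DHT and 1.60 and 6.24 TPM in APA.DHT. It was called lower with ENZ (log2 fold change -1.60, SE 0.25) and APA (-1.47, SE 0.25) and narrowly not with BIC (-0.82, SE 0.25, adjusted p 0.053 by limma). BRCA2 reached its lowest values with ENZ, at 0.12 TPM in ENZ.VEH replicate 1 and 0.18 TPM in ENZ.DHT replicate 1, while replicate 2 of these groups had 3.62 and 3.44 TPM.

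For the 2 genes that fell with DHT, the estimates against DHT were above 0 with all 3 antagonists, and the difference between the genes was not tested. BARD1 rose against DHT with BIC (57.7 and 72.4 TPM, log2 fold change 0.78, SE 0.20, adjusted p 0.0294 by limma) and ENZ (43.6 and 75.2 TPM, 0.61, SE 0.20, adjusted p 0.0448). With APA it had 32.4 and 70.8 TPM and was not called (0.36, adjusted p 0.219), and its replicate 1 lay at the level of replicate 1 of DHT (32.5 TPM). PMS2 was not called in any of the 3 (log2 fold changes 0.34, 0.23 and 0.41, SE 0.22 each), with 37.6 and 36.3 TPM in BIC.DHT, 27.5 and 42.4 TPM in ENZ.DHT and 30.6 and 48.7 TPM in APA.DHT. In PMS2 and BARD1 it was replicate 1 of ENZ.DHT and APA.DHT that lay low. A fit without both of those libraries was added after seeing the data. It drops these low values of ENZ.DHT and APA.DHT, so no result is drawn from it for PMS2 and BARD1.

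The counts for BIC were less stable than those for ENZ and APA. Without DHT replicate 1, DHT replicate 2, BIC.DHT replicate 1 or BIC.DHT replicate 2, 2 to 4 repair genes were called for BIC.DHT, against 19 to 23 for ENZ.DHT and 17 to 23 for APA.DHT when 1 library was left out. Without the block 1, 2 and 2 genes were called for BIC, ENZ and APA, against 3.13%, 9.65% and 8.36% of all genes. They were XRCC3 in each, with RAD51C for ENZ and APA. With only the compared groups in the fit 0 were called in each, with 26, 23 and 21 genes at an unadjusted p under 0.05. That fit takes its spread from the compared libraries alone. The share of all genes called in it, or with 1 library left out, is not given here. With replicate 1 of ENZ.DHT and of APA.DHT left out together, the counts were 22, 24 and 25.

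Dividing-cell markers again moved with the repair genes. With ENZ and APA all 32 were lower than with DHT, and with BIC 10 were called lower and all 32 were lower in both replicates. Without the block 1, 1 and 0 of them were called for ENZ, APA and BIC by limma, with 8, 7 and 1 at an unadjusted p under 0.05. Their median TPM was 25.7 and 46.3 with DHT, 17.8 and 32.1 in BIC.DHT, 5.34 and 23.5 in ENZ.DHT and 7.16 and 21.9 in APA.DHT. Their part in the result was not tested. NEIL1, of the other repair genes, rose with all 3 antagonists (log2 fold change 1.27 for BIC, 1.86 for ENZ and 1.86 for APA).

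**Figure D4:**
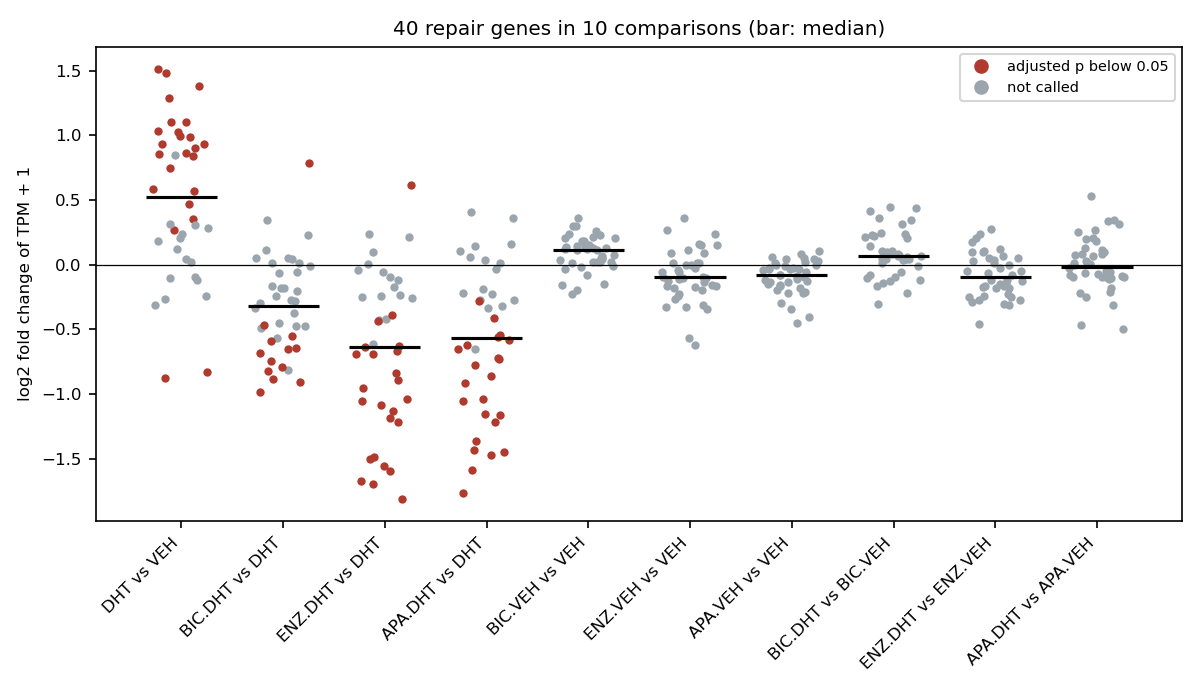
Log2 fold changes (TPM + 1 scale) of the 40 repair genes in 10 comparisons, with red points for genes called at an adjusted p below 0.05, grey points for the rest and a bar at the median. The median was 0.52 with DHT, between -0.63 and -0.32 for antagonists given with DHT, and between -0.10 and 0.11 in the other 6 comparisons, which had no red point.

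The antagonists, at a matched dose of 10 µM, were also set against each other with DHT present, 3 pairs over all genes. No repair gene was called by limma in any pair (0 of 40 each, 0 without the block), with 0.012% of all genes called for ENZ.DHT against BIC.DHT, 0.0541% for APA.DHT against BIC.DHT and 0.00601% for APA.DHT against ENZ.DHT. At an unadjusted p under 0.05 there were 20, 14 and 1 repair genes, against 12.4%, 9.88% and 1.39% of all genes tested and 31, 30 and 0 of the 32 dividing-cell markers, whose part in the result was not tested. FANCI had a log2 difference of -0.95 between ENZ and BIC (95% interval -1.36 to -0.54, adjusted p 0.1 by limma). For EXO1 the log2 difference between APA and ENZ was -0.09 (95% interval -0.67 to 0.49), and for XRCC3 it was 0.00 (-0.24 to 0.25). The unadjusted 95% intervals of the 40 genes reached a median of 0.35 to either side, and 20, 14 and 1 of them excluded 0. Against BIC.DHT, 36 of the 40 estimates were below 0 for ENZ.DHT and 33 for APA.DHT. Their medians were -0.30 and -0.27, against -0.03 and -0.01 for all genes tested. Most estimates thus lay lower with ENZ and APA, but none passed the adjusted test. That 11 genes were called lower with ENZ and APA but not with BIC is on that test no shown difference between the drugs.

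Given without DHT, no antagonist changed a repair gene at the threshold. Against VEH, 0 of 40 were called by limma in BIC.VEH, ENZ.VEH and APA.VEH (0 without the block). Over all genes, 0.018%, 0% and 0.012% were called. At an unadjusted p under 0.05 there were 1, 4 and 0 repair genes, against 3.24%, 2.9% and 2.4% of all genes. The median log2 fold changes were 0.11, -0.10 and -0.08. BRCA1 was the lowest with ENZ, at 1.10 and 5.35 TPM against 3.29 and 6.34 TPM in VEH (log2 fold change -0.62, SE 0.25, limma adjusted p 1), a value chosen after it was seen. The dividing-cell markers had a median of 2.83 TPM in ENZ.VEH replicate 1, the lowest of all libraries, and 4.26 TPM in APA.VEH replicate 1.

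DHT given on top of an antagonist changed no repair gene at the threshold either. Within BIC, ENZ and APA, 0 of 40 were called by limma (0 without the block), with 0%, 0.00601% and 0.024% of all genes called. Repair genes at an unadjusted p under 0.05 numbered 3, 2 and 1, against 4.62%, 9.55% and 6.96% of all genes. The median log2 fold change of DHT was 0.07 within BIC, -0.10 within ENZ and -0.02 within APA, against 0.52 without an antagonist. Within ENZ the median of all genes was -0.13 and moved to 0.00 under median-ratio scaling, where the median of the repair genes was 0.02. EXO1 had 1.22 and 3.77 TPM in BIC.VEH and 2.25 and 4.79 TPM in BIC.DHT, higher within both replicates, and 1.18 and 2.35 TPM in APA.VEH and 0.59 and 3.01 TPM in APA.DHT, where the replicates moved in opposite directions.

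The difference between these responses was tested as the interaction of each antagonist with DHT. The response to DHT was lower for 4 repair genes with BIC, 14 with ENZ and 10 with APA, and higher for 0, against 6.39%, 9.91% and 10.1% of all genes called in either direction (3.15%, 5.72% and 4.91% lower and 3.24%, 4.18% and 5.22% higher). XRCC3 had the lowest p in each, with log2 differences in response of -0.89 (SE 0.16, adjusted p 0.00873 by limma) for BIC, -1.32 (SE 0.16, 0.000847) for ENZ and -1.02 (SE 0.16, 0.00336) for APA. Without the block 0, 1 and 1 genes were called, XRCC3 in the latter pair, against 0.986%, 1.63% and 1.42% of all genes. Leaving out 1 library gave 0 to 4 genes for BIC, 3 to 13 for ENZ and 3 to 10 for APA, with the fewest for BIC and ENZ without VEH replicate 2 and for APA without that library or without APA.VEH replicate 1.

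The repair genes also differed between replicates, whatever the treatment. Of the 40, 26 (65%) were higher in replicate 2 than in replicate 1 in all 8 groups, against 17.8% of all genes tested and 31 of the 32 dividing-cell markers. Among the 22 genes that rose with DHT, 20 did so. The other 2 were XRCC3, higher in replicate 2 in 6 of 8 groups with a mean log2 difference of 0.14, and RAD51C, higher in 5 of 8 with 0.16. BRCA2 had the widest difference, a mean of 1.47 on the log2 scale, with a mean over groups of 1.17 TPM in replicate 1 and 4.69 TPM in replicate 2. PMS2, which fell with DHT, had a mean difference of 0.04.

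**Figure D5:**
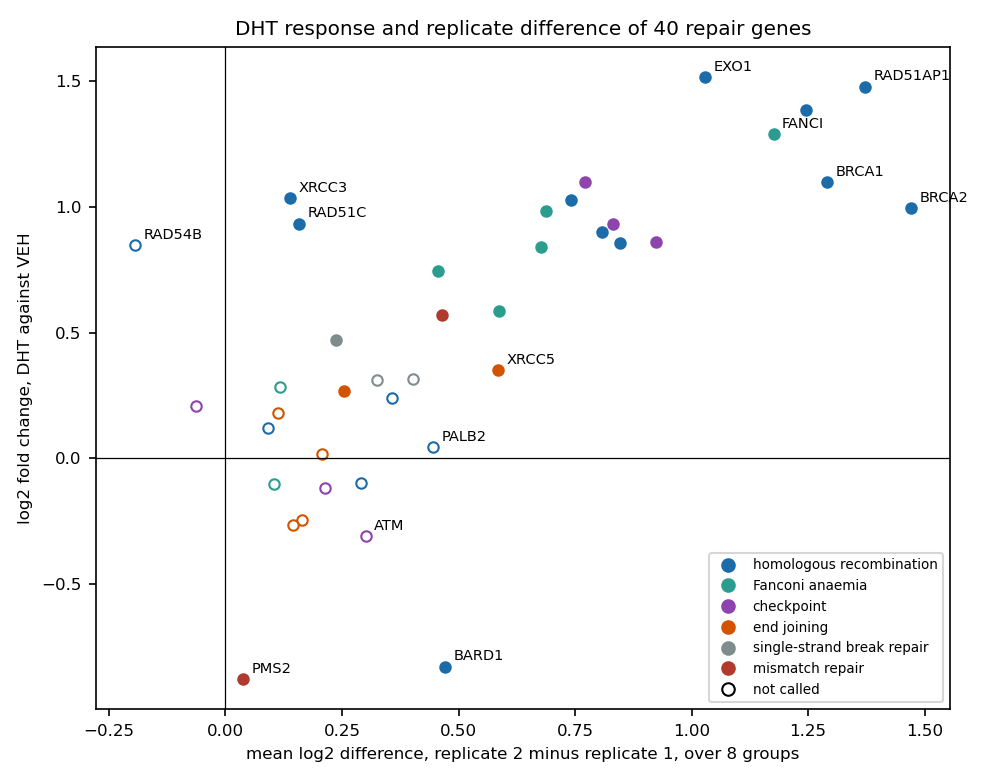
Log2 fold change of DHT against VEH (vertical axis) against the mean log2 difference between replicate 2 and replicate 1 over the 8 groups (horizontal axis), 1 point per repair gene, filled when called with DHT. BRCA2 lies farthest right at 1.47, while XRCC3 and RAD51C combine fold changes of 1.04 and 0.93 with replicate differences of 0.14 and 0.16.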

How the data were processed

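Gene expression was measured by RNA sequencing of polyadenylated RNA in 16 LNCaP libraries, grouped and numbered as in the labels. The authors trimmed reads with Trim Galore 0.6.5 after FastQC 0.11.9, aligned them to GRCh38 with STAR 2.7.2b (Gencode v33) and estimated expression with RSEM 1.3.3 (versions from the submitters' processing notes), and deposited TPM per gene symbol, with column totals of 976190 to 983114. TPM keeps no depth; sequencing aimed at about 40 M read pairs for each library, per the labels. Values were analysed as log2(TPM + 1), which understates the change of low genes, with limma 3.58.1 in R 4.3.3 (group means and replicate number as a block in all 16 libraries, 7 residual degrees of freedom, trended moderated test), for 16 contrasts. The script was tested on simulated data.

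Replicate numbers paired the libraries: deviations from group means correlated in all 28 pairs of groups (r from 0.204 to 0.635, threshold 0.1). The repair genes and lists were chosen with earlier results of these data known. Values per library are given for the 2 highest and the lowest gene by DHT response in each role, all genes of roles with 3 or fewer, those that fell with DHT, and 5 chosen later. Outside the 40 genes, the rule names the 2 highest and 2 lowest other repair genes; 1 of these is not reported here. Alternatives were no block, a pseudocount of 0.1, no filter, a filter at 5 TPM, median-ratio scaling, only the compared groups, each library left out, and 2 libraries left out together (added after seeing the data). Gene positions and promoters are from RefSeq.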

Additional observations from a re-analysis of the deposited data

Results flagged for a closer look

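The response to DHT differed with an antagonist present for the following genes, by the interaction term of limma with the replicate block (adjusted p below 0.05). Each value is the log2 fold change of DHT within the antagonist minus that without it, and all are negative. For bicalutamide, the differences were -0.89 for XRCC3, -0.73 for FANCG, -1.04 for FANCI and -1.24 for CLSPN.

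For enzalutamide, the recombination genes had -0.83 (BRIP1), -0.73 (RAD51C), -1.24 (RAD51AP1), -1.47 (RAD54L), -0.90 (XRCC2), -1.32 (XRCC3) and -1.35 (EXO1). In the other roles the differences were -0.80 for MSH6, -1.29 for FANCA, -0.64 for FANCC, -1.46 for FANCI, -1.01 for CHEK1, -0.88 for CHEK2 and -1.26 for CLSPN.

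For apalutamide, they were -0.68 (RAD51C), -1.40 (RAD51AP1), -0.95 (XRCC2), -1.02 (XRCC3), -1.61 (EXO1), -0.78 (MSH6), -1.03 (FANCA), -0.61 (FANCC), -1.35 (FANCI) and -1.07 (CLSPN). The 3 tests share the VEH and DHT libraries. Of the 32 dividing-cell markers, 3, 14 and 16 had a lower response with bicalutamide, enzalutamide and apalutamide, and their part in these results was not tested.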

How the results depend on the processing

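Counts of repair genes called moved by more than 1.5 times under these alternatives. Without the replicate block, DHT against VEH had 3 calls in place of 24, BIC.DHT, ENZ.DHT and APA.DHT against DHT had 1, 2 and 2 in place of 13, 24 and 23, and the interactions with BIC, ENZ and APA had 0, 1 and 1 in place of 4, 14 and 10. With no filter on low values, BIC.DHT against DHT had 5 and the interactions 2, 6 and 5. With only the compared groups in the fit, the 3 antagonists against DHT had 0, 0 and 0 and the interactions 15, 2 and 2. Median-ratio scaling gave 9 for the interaction with BIC. Leaving out replicate 1 of ENZ.DHT and of APA.DHT together, chosen after seeing the data, gave 22 for BIC.DHT against DHT and 14 for the interaction with BIC. With 1 library left out, where the lone library of a group is assumed to vary like the others, counts ran from 17 to 19 for DHT against VEH, from 2 to 4, 19 to 23 and 17 to 23 for BIC.DHT, ENZ.DHT and APA.DHT against DHT, and from 0 to 4, 3 to 13 and 3 to 10 for the interactions. The cause was not tested. FANCL changed sign with DHT, to 0.0034 under median-ratio scaling, and it ran from -0.38 (without DHT replicate 2) to 0.18 (without DHT replicate 1) with 1 library left out. With 2 libraries per group, precision rests on the spread shared by all groups, and depth is unknown.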

Other observations

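RAD54B differed between replicates in the opposite sense in some groups. In VEH, DHT and both BIC groups replicate 2 was at or above replicate 1, whereas replicate 1 was higher in ENZ.VEH (10.7 against 6.25 TPM), ENZ.DHT (11.6 against 6.28 TPM), APA.VEH (7.21 against 5.63 TPM) and APA.DHT (12.4 against 7.51 TPM). RAD54B was chosen after its values were seen, and it was not alone in this. ATR was also higher in replicate 1 in these ENZ and APA groups, by smaller log2 differences, and in BIC.DHT. FANCL and RAD51C were higher in replicate 1 in ENZ.VEH, ENZ.DHT and APA.DHT. RAD54B overlaps FSBP in the annotation, which was also higher with DHT (log2 fold change 0.46, limma adjusted p 0.0497).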
